A study of Mus musculus with 20 samples.

Results

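The genes described here are 10 core components of the mammalian circadian clock, Per1, Per2, Per3, Cry1, Cry2, Arntl, Clock, Nr1d1, Nr1d2 and Dbp, measured by RNA-seq in mouse embryoid body (EB) cultures. They were taken by symbol from the gene table, in which all 10 of the 10 were found among 55573 gene identifiers. They were chosen by 1 measured difference, the lower level of Per1 in the Nox4 knockout lines than in the wild type line WT_1-4, so that difference is given only as a description. The 20 libraries came from 4 mouse induced pluripotent stem cell (iPSC) lines, 2 wild type (WT_1-4, and WT_20d, whose source is given as WT#20D-17) and 2 with the Nox4-/- genotype (N4_5-8 and N4_5-23), each sampled once on days 0, 3, 5, 7 and 14. Nox4 encodes an NADPH oxidase that makes hydrogen peroxide. The iPSCs were embryonic fibroblasts reprogrammed with retroviruses carrying Oct4, Sox2, Klf4 and c-Myc, each line was 1 picked colony, and the cells had been grown on mouse embryonic fibroblast feeders. EBs, in which pluripotent cells clump together and begin to specialise, were formed in hanging drops for 3 days in medium without the cytokine LIF and then attached to gelatin. The titles of the samples give day 14 where their protocol text gives day 10, and the titles were followed. The protocol counts the days from attachment, so whether day 0 preceded the hanging drops is not settled by the sources used here. Nothing in them says at what hour the cultures were collected or whether they were synchronised, so the part of the time of day in any difference between libraries was not tested.

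The circadian clock is a feedback loop of transcription. ARNTL (also called BMAL1) and CLOCK form a dimer that binds E-box elements and switches on the Per, Cry, Nr1d and Dbp genes. PER and CRY proteins then enter the nucleus and inhibit the dimer, while the nuclear receptors NR1D1 and NR1D2 (REV-ERB alpha and beta) repress Arntl through elements that the ROR receptors also bind. DBP activates genes with D-box elements, Per genes among them. Pluripotent stem cells are known for lacking a running molecular clock, which appears as they differentiate. In a culture whose cells are not in phase with each other, a bulk level does not show whether single cells cycle.

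Promoter sequence is shown for 3 of the members whose levels were higher on day 14 than on day 0 and in whose windows a clock element was found. The windows run from 250 bases before to 50 bases after an annotated start site in RefSeq (GRCm38.p6). RefSeq windows were matched by symbol for 9 of the 10 members, 13 windows in all, and Per2 was not matched. Letters are given 5′ to 3′ on the strand of the gene, and capitals mark the exact matches. These are the E-box CACGTG and TGACG, the shorter form of the cAMP response element, in Per1, the D-box TTATGTAA in Per3, and TAGGTCA, the core of the ROR element, in Arntl, printed with the 3 bases before it that complete the longer form of the element. Both strands were searched.
Per1, first window, chr11:69098699-69098998, plus strand: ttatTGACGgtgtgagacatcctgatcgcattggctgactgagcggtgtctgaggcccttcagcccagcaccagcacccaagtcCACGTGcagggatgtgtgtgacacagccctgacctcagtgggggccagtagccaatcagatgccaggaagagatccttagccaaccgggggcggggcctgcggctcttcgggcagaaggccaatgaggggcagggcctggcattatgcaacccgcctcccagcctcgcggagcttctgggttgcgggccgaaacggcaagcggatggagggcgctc
Per1, second window, chr11:69099902-69100201, plus strand: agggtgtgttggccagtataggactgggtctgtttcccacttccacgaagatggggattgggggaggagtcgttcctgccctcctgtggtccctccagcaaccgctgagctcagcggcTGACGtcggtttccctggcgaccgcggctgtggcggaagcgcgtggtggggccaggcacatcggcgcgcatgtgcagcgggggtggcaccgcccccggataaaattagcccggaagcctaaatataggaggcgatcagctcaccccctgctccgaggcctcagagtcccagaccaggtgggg
Per3, chr4:151044616-151044915, minus strand: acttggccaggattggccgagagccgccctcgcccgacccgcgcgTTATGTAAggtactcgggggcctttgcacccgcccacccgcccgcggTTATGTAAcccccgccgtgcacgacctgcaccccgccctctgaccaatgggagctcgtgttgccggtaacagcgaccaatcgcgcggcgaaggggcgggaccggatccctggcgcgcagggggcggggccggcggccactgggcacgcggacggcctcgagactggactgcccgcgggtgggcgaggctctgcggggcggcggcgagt
Arntl, chr7:113207261-113207560, plus strand: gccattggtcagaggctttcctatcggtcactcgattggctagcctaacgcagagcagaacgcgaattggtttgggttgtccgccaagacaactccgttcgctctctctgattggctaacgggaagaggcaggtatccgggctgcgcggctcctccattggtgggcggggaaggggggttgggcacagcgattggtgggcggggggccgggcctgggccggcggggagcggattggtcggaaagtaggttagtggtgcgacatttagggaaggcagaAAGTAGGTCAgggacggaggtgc

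The first window of Per1 held the short cAMP element at position -246 and the E-box at -166, and the second window held the short cAMP element at -132. Per3 held the D-box at -205 and again at -158, and Arntl held the ROR core at 31. Positions count the first base of the match from the start site. Of 32851 windows of the same length over all genes, 7.15% held the E-box, 20.8% the short cAMP element, 0.938% the D-box and 2.61% the ROR core. The E-box was also found in the window of Cry1 and the short cAMP element in those of Cry1 and Cry2, while the full cAMP response element TGACGTCA, present in 1.79% of all windows, was found in none of the 13. None of these letters was found in the windows of Clock, Nr1d1, Nr1d2 and Dbp. A match is a description of the sequence and was not tested as a binding site.

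The libraries were examined before the members. Nox4 had 7, 22, 21, 12 and 3 counts in WT_1-4 on the 5 days, 64, 165, 188, 203 and 56 in WT_20d, 0, 2, 0, 1 and 0 in N4_5-8, and 0 in every library of N4_5-23. Total counts lay between 20294968 and 27708023 per library. WT_20d stood apart. Its summed level of 8 markers of pluripotent cells went from 2591 CPM (TMM-scaled CPM, the share of a library's counts) on day 0 to 176 on day 14, that of 8 fibroblast markers from 23.9 to 2941 and that of 5 endoderm markers from 120.5 to 1643. In the other 3 lines the pluripotent sum stayed between 77.1 and 206, most of it Fgf4, the fibroblast sum between 2.43 and 107, and the endoderm sum did not exceed 4.55. Of the 8 markers, Zfp42 had 0 counts in every library of these 3 lines. Nanog and Esrrb did not exceed 1.03 CPM there, day 0 included, against 383 CPM for Nanog in WT_20d on day 0. A count of 0 allows up to 3 counts, 0.148 CPM at most. Utf1, another of the 8, was not alike in the 3 lines. With days pooled it stood at a log2 difference of -8.62 in the knockout lines against WT_1-4. It was the only 1 of the 8 that passed an FDR under 0.01 there, by edgeR's exact test. The sum of 4 neural markers was lowest in WT_20d. It was 9.08 to 38.9 CPM in WT_20d, 299.6 to 530.5 in WT_1-4, 131 to 158 in N4_5-8 and 88.4 to 147 in N4_5-23. Results that rest on WT_20d are therefore also given without it.

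All 10 members were detected in all libraries, with 67 to 3816 counts each. Read as CPM per kilobase of annotated exon, Nr1d2 had the highest median over the 20 libraries at 10.7 and Per2 the lowest at 1.26, and the other 8 medians lay between 3.07 for Arntl and 6.80 for Dbp. A single value had a 95% Wilson interval of between 3.17% and 24.1% to either side, which covers counting error only. The comparison of days asked whether each gene differed between days with the line held constant. Over all 10 members, 5 passed an FDR under 0.01 in edgeR's quasi-likelihood test of day 14 against day 0, namely Per1, Per3, Arntl, Nr1d1 and Dbp, and all of them were higher on day 14. Of all 17827 genes tested, 28.8% passed in either direction, and 14.8% passed and were higher. The median log2 difference was 1.27 over the 10 members and 0.04 over all genes, and 9 of the 10 estimates were above 0. The same 5 passed in the test over all 5 days, in which 18.0% of genes passed. Most of these calls over all days were lost without a single line. Nr1d1 was the only member that passed without WT_1-4 (FDR 0.00618) or without N4_5-23 (FDR 0.00777), and without N4_5-8 no member passed, Nr1d1 being nearest at an FDR of 0.0127, while 624 to 1428 genes passed in these 3 fits. On day 3 against day 0, 0 members passed and their median was 0.03, while 0.163% of genes passed. In these bulk libraries, fewer cells of a type and less RNA per cell cannot be told apart.

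**Figure D1:**
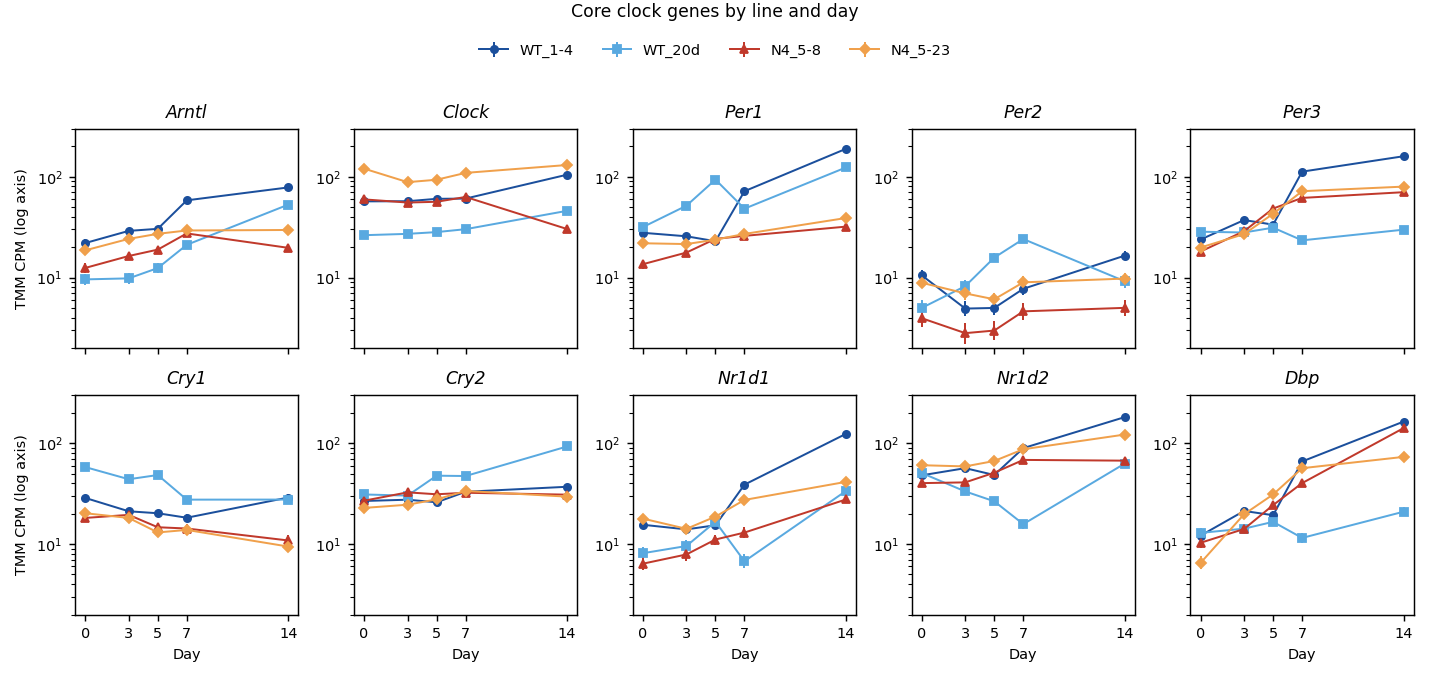
Level of each member in TMM-scaled CPM (log axis) against day, for the 4 lines. Points are single libraries, with vertical bars for the 95% Wilson interval of the count. On day 14, WT_1-4 had the highest level of 8 of the 10 members, Per1 at 189 CPM and Dbp at 164 CPM among them, while Dbp in WT_20d was at 20.9 CPM.

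Of the activators, Arntl rose and Clock did not pass the test. Arntl (ENSMUSG00000055116, chromosome 7 from 113207465 to 113314126 on the plus strand) encodes BMAL1, whose loss alone is known to abolish daily rhythms in mice. Its levels on days 0, 3, 5, 7 and 14 were 22.0, 29.0, 30.4, 58.3 and 78.3 CPM in WT_1-4. In WT_20d they were 9.59, 9.82, 12.4, 21.1 and 52.9 CPM. In N4_5-8 they were 12.5, 16.4, 18.9, 27.4 and 19.7 CPM and in N4_5-23 18.6, 24.2, 27.1, 29.3 and 29.6 CPM. Each line was higher on day 14 than on day 0, and both wild type lines ended above both knockout lines. How many of all genes were ordered by genotype in this way on day 14 was not computed. The mean of log2(CPM + 1) was 3.99 ± 0.51 (SD, n = 4 lines) on day 0 and 5.34 ± 0.86 on day 14. The fitted log2 difference was 1.55 ± 0.31 (SE), with an FDR of 0.00077. It was 1.43 without WT_1-4, with an FDR of 0.0172, and without the line as a block the FDR was 0.0297. Arntl was the member with the lowest p in the interaction of genotype and day, 0.00146, but its FDR was 0.41. In that test 0 members passed, as against 0.0112% of all genes, which is 2 genes, and 1372 genes had an unadjusted p under 0.05. DESeq2, the other tool run, gave Arntl an FDR of 0.000769 and called 185 genes.

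Clock (ENSMUSG00000029238, chromosome 5 from 76209868 to 76304792 on the minus strand) encodes the other partner in the dimer. Its levels by day were 57.0, 57.2, 60.4, 60.7 and 105 CPM in WT_1-4. They were 26.3, 27.1, 28.2, 30.2 and 45.9 CPM in WT_20d, below every library of WT_1-4. In N4_5-8 they were 59.6, 55.5, 56.4, 63.0 and 30.3 CPM and in N4_5-23 120.3, 88.3, 93.3, 109 and 131 CPM, so every library of N4_5-23 was above all those of N4_5-8. For neither genotype was the share of all genes that separate its lines in this way computed. On days 0 to 7, N4_5-23 was highest and WT_20d lowest on each day, and WT_1-4 and N4_5-8 lay close together between them. On day 14 Clock was higher than on day 7 in WT_1-4, WT_20d and N4_5-23 and lower in N4_5-8. The fitted difference of day 14 against day 0 was 0.31 ± 0.25 on the log2 scale, with an FDR of 0.323.

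Among the Per genes, which encode the inhibitors that limit the activity of the dimer, Per1 and Per3 rose and Per2 did not pass. Per1 (ENSMUSG00000020893, chromosome 11 from 69095217 to 69109960 on the plus strand) is known to respond also to cAMP and glucocorticoid signals as an immediate early gene. Its levels by day were 27.8, 25.7, 22.9, 71.8 and 189 CPM in WT_1-4. In WT_20d they were 31.7, 51.6, 93.7, 48.2 and 124 CPM, with a first maximum on day 5 that no other line had. They were 13.6, 17.7, 24.2, 25.9 and 32.0 CPM in N4_5-8 and 21.9, 21.5, 23.8, 27.1 and 39.0 CPM in N4_5-23. Day 14 was the highest library of each line, at 3.90 times day 0 in WT_20d and 1.78 times in N4_5-23, the smallest ratio. The mean of log2(CPM + 1) was 4.57 ± 0.51 (SD, n = 4 lines) on day 0 and 6.22 ± 1.23 on day 14. The fitted log2 difference was 1.80 ± 0.38 (SE), with an FDR of 0.00128. It was lost only without the line as a block, where the FDR was 0.0258, among 9 alternatives.

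Per3 (ENSMUSG00000028957, chromosome 4 from 151003652 to 151044665 on the minus strand) is the Per gene whose loss is known to affect rhythms least. By day it had 23.9, 37.2, 33.5, 112 and 159.7 CPM in WT_1-4. In WT_20d it had 28.5, 27.99, 31.2, 23.4 and 29.9 CPM, and no day stood out. It had 18.1, 28.8, 48.4, 61.6 and 70.3 CPM in N4_5-8 and 19.9, 27.0, 43.0, 71.9 and 79.8 CPM in N4_5-23. The 3 lines other than WT_20d were each higher on day 14, by 1.90 to 2.69 on the scale of log2(CPM + 1), and WT_20d by 0.07. The fitted difference was 1.72 ± 0.37 (SE) with an FDR of 0.00157, and 2.30 with an FDR of 2.49e-05 without WT_20d. It was 1.29 with an FDR of 0.0195 without WT_1-4, and the FDR was 0.0217 without N4_5-8 and 0.029 without N4_5-23. Whether WT_20d differed from the other lines in this was not tested, since it is 1 line, and its fibroblast and pluripotent sums given above moved over the same days.

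Per2 (ENSMUSG00000055866, chromosome 1 from 91415982 to 91459324 on the minus strand), the Per gene central to rhythm in many tissues, was the lowest member by length. It lay between 4.93 and 16.5 CPM in WT_1-4, 5.00 and 24.1 in WT_20d, 2.81 and 5.01 in N4_5-8 and 6.09 and 9.77 in N4_5-23. Its highest library was that of WT_20d on day 7. The difference of day 14 against day 0 was 0.48 ± 0.39 (SE), with an FDR of 0.338. Every library of N4_5-23 was above all those of N4_5-8, and the share of all genes separated in this way was not computed.

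The Cry genes encode the repressors that bind the dimer directly, and neither passed the test of the days. Cry1 (ENSMUSG00000020038, chromosome 10 from 85131700 to 85185064 on the minus strand) had 28.7, 21.1, 20.2, 18.2 and 28.9 CPM by day in WT_1-4. It had 58.0, 43.9, 48.4, 27.6 and 27.6 CPM in WT_20d, 18.2, 19.5, 14.7, 14.3 and 10.8 CPM in N4_5-8 and 20.2, 18.1, 13.0, 13.8 and 9.44 CPM in N4_5-23. Day 14 was below day 0 in 3 lines, and level with it in WT_1-4, where the log2 difference was 0.01. The fitted difference was -0.66 ± 0.23 (SE), the only negative one among the members, with an FDR of 0.0263. Without WT_1-4 it was -0.98, with an FDR of 0.00302. Cry2 (ENSMUSG00000068742, chromosome 2 from 92403646 to 92434043 on the minus strand) lay between 22.8 and 37.0 CPM in all libraries of the 3 lines other than WT_20d. In WT_20d it had 31.0, 30.2, 47.6, 47.3 and 92.9 CPM. Its difference over the days was 0.71 ± 0.22 (SE) with an FDR of 0.0149, and 0.38 with an FDR of 0.0638 without WT_20d.

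The REV-ERB genes encode the repressors of Arntl, and Nr1d1 rose. Nr1d1 (ENSMUSG00000020889, chromosome 11 from 98767932 to 98775333 on the minus strand) had 15.5, 13.98, 15.4, 38.8 and 124 CPM by day in WT_1-4. It had 8.12, 9.56, 16.6, 6.75 and 33.6 CPM in WT_20d. It had 6.39, 7.89, 11.1, 13.0 and 27.7 CPM in N4_5-8 and 17.9, 14.2, 18.7, 27.4 and 41.4 CPM in N4_5-23. In every line day 14 was the highest library, and in WT_1-4 it stood at 7.97 times day 0. The mean of log2(CPM + 1) was 3.59 ± 0.66 (SD, n = 4 lines) on day 0 and 5.58 ± 0.95 on day 14. The fitted log2 difference was 2.16 ± 0.35 (SE), with an FDR of 0.000147. It passed in all 9 alternatives, with FDRs of 4.13e-09 to 0.0089. Nr1d1 shares 263 exonic bases, 8.55% of its length, with Thra on the opposite strand, and whether the counting used strand is not given in the sources used here, so the reads of the 2 genes cannot be told apart there. Nr1d2 (ENSMUSG00000021775, chromosome 14 from 18204054 to 18239127 on the minus strand) ranged from 48.1 to 182 CPM in WT_1-4, 15.8 to 62.9 in WT_20d, 40.2 to 68.3 in N4_5-8 and 58.9 to 122 in N4_5-23. In WT_20d its lowest library was that of day 7, where WT_1-4 had 89.4 CPM. Its fitted difference was 0.99 ± 0.32 (SE) with an FDR of 0.0197, and 1.31 with an FDR of 0.000554 without WT_20d.

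Dbp (ENSMUSG00000059824, chromosome 7 from 45705088 to 45710203 on the plus strand) is an output gene of the clock, with large daily swings in many tissues. Its levels by day were 12.1, 21.3, 19.3, 65.9 and 164 CPM in WT_1-4. They were 12.9, 14.2, 16.6, 11.5 and 20.9 CPM in WT_20d. In N4_5-8 they were 10.3, 14.1, 24.4, 40.2 and 141 CPM and in N4_5-23 6.504, 19.8, 31.0, 56.5 and 73.2 CPM. Both knockout lines increased at every step. WT_1-4 was lower on day 5 than on day 3, but the Wilson intervals, 17.7 to 21.05 and 19.6 to 23.2 CPM, overlapped. WT_20d was lower on day 7 than on day 5. In the interaction of genotype and day the FDR of Dbp was 0.987. Its change was the largest among the members, 3.00 ± 0.49 (SE) on the log2 scale, with an FDR of 0.000154. It passed in all 9 alternatives, and without WT_20d the estimate was 3.73 with an FDR of 4.56e-06. On the scale of log2(CPM + 1), the rise was 3.65 in WT_1-4, 3.66 in N4_5-8 and 3.31 in N4_5-23, and 0.66 in WT_20d. Dbp shares 539 exonic bases, 18% of its length, with Sphk2 on the opposite strand, which limits it in the same way as Nr1d1. Smaller stretches of Cry2 (4.67%) and Arntl (0.439%) overlap noncoding genes on the other strand.

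**Figure D2:**
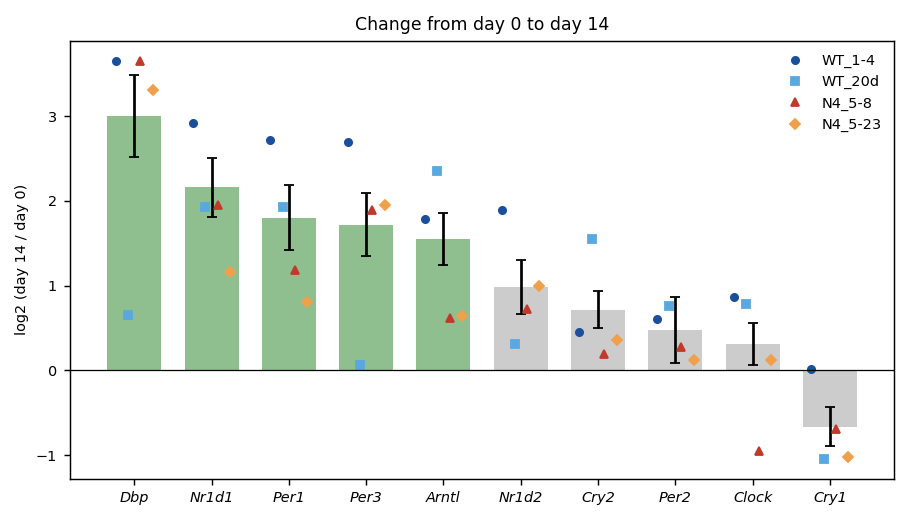
Log2 difference of day 14 against day 0 for each member, in order of size. Bars are the estimates fitted over 4 lines with their SE, green where the FDR was under 0.01 and grey otherwise, and points are the differences of log2(CPM + 1) in single lines. Dbp stood at 3.00 and Cry1 at -0.66, and WT_20d lay below the other lines for Dbp, Per3 and Nr1d2.

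A list of 23 other genes of the clock, of which 22 were tested, was described over the same days. On day 14 against day 0, 7 of the 22 passed, 5 of them higher, while 28.8% of all genes passed, which is near the share of the list, and the median of the list was 0.37. Among these, Rora, which encodes an activator of Arntl, rose by 2.88 on the log2 scale. Bhlhe40, which encodes a repressor at E-boxes, rose by 3.09, from 75.0 to 1213 CPM in WT_1-4 and from 18.7 to 129.8 CPM in WT_20d. Nfil3, which encodes a repressor at D-boxes, rose by 2.24 and Fbxl21 by 1.70. Timeless (-2.25) and Wee1 (-1.15), known for their parts in DNA replication and the cell cycle, were lower. Because Per1 also answers to other signals, 2 further lists were described. Of 26 immediate early genes tested, 15 were higher on day 14 and 0 lower, with a median of 1.48 and with Ier3 (4.33), Fos (3.10) and Maff (3.16) among them. Of 13 targets of the glucocorticoid receptor tested, 4 were higher, such as Tsc22d3 (2.25), and Fkbp5 was lower (-1.58). Dusp1 is in both lists. The part of these signals in the rise of Per1 was not tested.

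The study set wild type against Nox4-/- cells with all days pooled, and the same kind of test, edgeR's exact test, was applied to the members. Calls were made at an FDR under 0.01, and calls at an FDR under 0.001, which the methods of the study name as well, are given beside them. In this test the 5 days of 1 line stand in for replicates, although they are not. In the 15 libraries of WT_1-4 and the knockout lines, the contrast by which the members were picked, 1 member passed, Per1, at a log2 difference of -1.45 and an FDR of 0.00505, while 5.62% of 33860 genes passed, and nothing is read from this. At an FDR under 0.001 no member passed, beside 3.61% of genes. With the day as a replicate block Arntl (-0.85, FDR 0.000681) passed as well. Of the other 9 estimates 8 were below 0, Nr1d1 at -1.16 and Arntl at -0.96 being the largest, and Clock was at 0.25. The levels on day 14 weighed heavily in it. Without day 14 the Per1 difference was -0.74, and without N4_5-8 or N4_5-23 its FDR was 0.152 or 0.0605. On matched days both knockout lines were below WT_1-4 for Cry1 and Arntl on 5 of 5 days, and for Per1, Per3 and Dbp on 4 of 5. They were both below it on 2 days for Per2, Nr1d1 and Nr1d2, on 1 for Cry2 and on 0 for Clock. Both were above it on 2 days for Clock and on 1 for Per1, Per3, Cry2, Nr1d2 and Dbp. The share of all genes ordered in these ways was not computed, and nothing is read from these counts. Of the 23 other clock genes 2 were called, both lower in the knockout lines, Arntl2 at -1.93 and Hlf at -1.23, and the median of the list was -0.35. Of the immediate early genes 7 of 26 were called and of the glucocorticoid receptor targets 3 of 14, and all of these were lower, such as Atf3 at -2.56, Errfi1 at -2.48 and Dusp1 at -2.42. Markers of other cell types moved with this contrast. Of 8 fibroblast markers 5 were called lower in the knockout lines, with a median of -2.83 and Col1a2, a fibrillar collagen gene, at -3.60, and of 4 muscle markers 2 were called lower, with a median of -4.37. The summed level of the fibroblast markers was 41.95 to 107 CPM in WT_1-4, 6.63 to 14.4 in N4_5-8 and 2.43 to 19.7 in N4_5-23, and that of the muscle markers 5.66 to 42.7, 1.36 to 15.3 and 1.38 to 2.25 CPM. Their part in the differences of the members was not tested.

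WT_20d was not used in picking the members, although it was set against the same knockout libraries, so the 2 contrasts are not independent. In these 15 libraries 4 members passed, beside 25.8% of all genes, and 3 at an FDR under 0.001, beside 20.1%, and the medians were 0.20 over the members and -0.02 over all genes. Per1 was lower in the knockout lines by a log2 difference of -1.50, with an FDR of 1.36e-06, and lay below WT_20d on 5 of 5 days. Cry1 was lower by -1.43, with an FDR of 1.76e-08, and its highest knockout library, at 20.2 CPM, was below the lowest of WT_20d at 27.6. The share of all genes separated in either of these ways was not computed. Per1 and Cry1 passed in all 14 alternatives. Cry2 was lower by -0.77 with an FDR of 0.00418, which rose to 0.127 without day 14, to 0.0521 without N4_5-8 and to 0.101 without N4_5-23. Clock was higher by 1.35 with an FDR of 9.99e-05, and without N4_5-23 the difference was 0.76 with an FDR of 0.0224. With the day as a replicate block Nr1d2 (0.85, FDR 0.00969) passed as well. Arntl was lower in both knockout lines than in WT_1-4 on every day but higher than in WT_20d on 4 of 5, so its direction depended on the wild type line, as did those of Per3, Nr1d1, Nr1d2 and Dbp. Of the 23 other clock genes 5 were called lower and 3 higher, with a median of 0.09. Bhlhe41, a repressor like Bhlhe40, stood at -6.00. Of the immediate early genes 10 of 26 were called lower and 2 higher, and of the glucocorticoid receptor targets 8 of 14 lower and 0 higher. Markers of all cell types listed moved with this contrast. In the knockout lines 7 of 8 pluripotent markers were called lower and 1 higher, and 7 of 8 fibroblast markers lower. All 5 endoderm (median -12.18), all 4 muscle (-9.46) and all 5 primitive streak and mesoderm markers (-4.65) were called lower. Of 4 neural markers 3 were called higher, with a median of 3.22. The part of these cell types in the differences of the members was not tested.

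With the line as the unit, which is the independent unit for genotype, the counts of each line were summed over days and 2 wild type lines were set against 2 knockout lines. This comparison was added after the data had been seen. The quasi-likelihood test then called 0 of 20229 genes (0%), while 1628 had an unadjusted p under 0.05. It differs from the pooled comparisons both in its unit and in holding both wild type lines. For Per1 the log2 difference was -1.36, with an FDR of 0.604. Cry1 was at -1.07, with an FDR of 0.604.

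**Figure D3:**
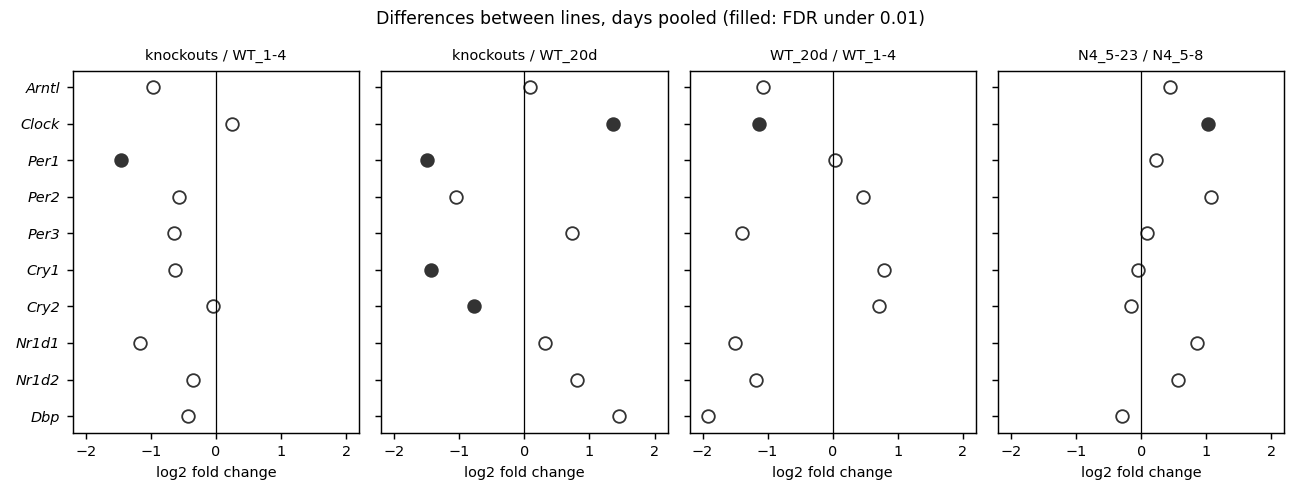
Log2 fold change of each member in 4 comparisons of lines with days pooled, the first group named over the second, by edgeR's exact test. Filled circles passed an FDR under 0.01. Per1 was near -1.5 against either wild type line, while Dbp went from -0.44 against WT_1-4 to 1.45 against WT_20d.

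Lines of the same genotype also differed. Between the wild type lines 1 member passed, beside 17.7% of all genes, and 9 of the 23 other clock genes, 5 of them lower in WT_20d. This was Clock, which was lower in WT_20d by a log2 difference of -1.13, with an FDR of 0.000459, and stood at 0.438 to 0.497 of WT_1-4 on matched days. Dbp (-1.91, FDR 0.0127), Nr1d1 (-1.50, FDR 0.097) and Per3 (-1.40, FDR 0.0209) had larger estimates but did not pass, and Arntl (-1.23, FDR 0.00217) passed with the day as a replicate block. For Per1 the wild type lines were within 0.03 of each other, although they crossed, with WT_20d at 4.08 times WT_1-4 on day 5 and 0.654 times on day 14. Between the knockout lines 1 member passed, beside 2.19% of all genes, and it was again Clock, which in both of these comparisons passed an FDR under 0.001 too, beside 12.9% and 1.25% of genes. It was higher in N4_5-23 by 1.03, with an FDR of 0.00085, and by 1.59 to 4.32 times on matched days. Per2 was higher in N4_5-23 by 1.07, with an FDR of 0.0175, and by 1.94 to 2.48 times on 5 of 5 days. The share of all genes ordered alike on every matched day was not computed for either pair of lines. With the day as a replicate block 4 members passed between the knockout lines, beside 6.305% of genes. They were Clock, Per2 at an FDR of 0.000342, Nr1d1 at 0.94 with an FDR of 0.000161 and Nr1d2 at 0.54 with an FDR of 0.00535, all higher in N4_5-23. Of the other clock genes Arntl2, a relative of Arntl, was higher in N4_5-23 by 2.17, and it was the only one of 23 that passed there.

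The chromosome of each member was set beside these differences. Clock lies on chromosome 5, whose 967 expressed genes had a median log2 difference of 0.50 between N4_5-23 and N4_5-8 relative to all genes, while Clock itself was at 1.06. Against WT_1-4 the chromosome stood at 0.53 in N4_5-23 and 0.03 in N4_5-8. The medians of the chromosomes of the other 9 members lay between -0.06 and 0.00 in the comparison of the knockout lines. Nr1d2 lies on chromosome 14, whose 542 genes had a median of 0.43 in WT_20d relative to WT_1-4, while Nr1d2 was at -1.12. The part of chromosome-wide differences in the level of Clock was not tested.

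**Figure D4:**
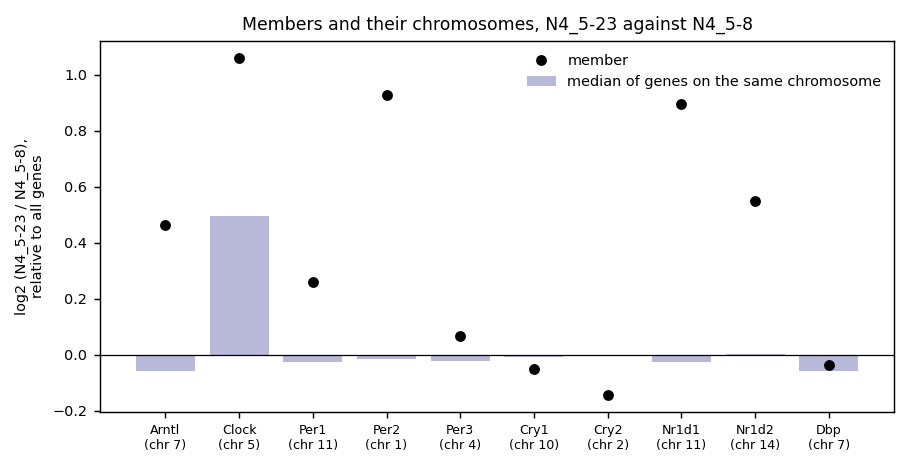
Log2 difference between N4_5-23 and N4_5-8, averaged over days and relative to the median of all genes, for each member (points) and for the genes on its chromosome (bars, median). The bar of chromosome 5 reached 0.50 with Clock at 1.06, and the other bars were within 0.06 of 0.

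The members did not all vary together. Over the 20 libraries, Pearson's r of log2(CPM + 1) between Dbp and Per3 was 0.94, which placed Per3 at rank 6 of 14578 genes by likeness to Dbp. Between Per1 and Nr1d1 r was 0.66, and after the mean of each line was subtracted 0.95, at rank 13 for Per1. Between Arntl and Cry1 it was -0.34. These are descriptions over libraries that share lines, days and the same scaling. The genes most like Per1 were Ppp1r15a (r of 0.98), Ralgds (0.97), Heca (0.96), Litaf (0.95) and Fosb (0.94), of which Ppp1r15a and Ralgds remained among the first 5 after subtraction of the line means. Lifr (0.93) was most like Arntl, Tmem184b (0.93) most like Nr1d1 and Cyb561 (0.96) most like Dbp.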

How the data were processed

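RNA-seq was analysed for 20 libraries of 4 iPSC lines. The authors prepared stranded mRNA libraries, aligned reads with STAR 2.6.0c to GRCm38 (mm10) and deposited gene-level expected counts from RSEM 1.3.1, without normalization. The strand setting of RSEM is not given in the sources used here. Of all values, 9.92% had decimals, since RSEM divides reads that match several genes, and 4 members had any such value. Counts were rounded to whole numbers here. Symbols came from GENCODE M21, in which 55480 of 55573 identifiers were found. The members, the gene lists and the tests were chosen with earlier results of these data known.

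Total counts were 20294968 to 27708023 per library. Scaling, tests and simulations were run with R 4.3.3, edgeR 4.0.16 and DESeq2 1.42.0. Intervals, means over lines, likeness, chromosome medians, the motif search and the outlier test were computed with Python 3.11.15, pandas 2.3.3 and scipy 1.17.1. Figures were drawn with matplotlib 3.10.9. CPM were scaled with TMM factors, with 1 added before log2 of single values. Comparisons of lines with days pooled used edgeR's exact test over 33860 genes with a nonzero value, as in the study's methods. The study's text names both 0.01 and 0.001 as the FDR, and the first was used. For days and for genotype by day, the quasi-likelihood F test of edgeR was used with the line as a term, after its expression filter. A call is a Benjamini-Hochberg FDR under 0.01. Same-numbered samples are 1 line, which pairs them across days: over 14579 genes, each line's deviations from the day means correlated between days with an r of 0.451 to 0.947 over 10 pairs of days. Each line and day is 1 library, and the line is the replicate of a day. p-values of the pooled comparisons measure only the spread between the days of the lines, which may not be independent. Intervals are 95% Wilson intervals and 3 counts were taken as the floor. Likeness was Pearson's r over 14578 other genes with a mean of at least 1 CPM, the first 5 genes being named for Per1, and the first for Arntl, Nr1d1 and Dbp. All members were named in every comparison, and of the lists those with the largest changes or a known role in the loop. Of the marker lists, pluripotent, fibroblast, endoderm, neural and muscle markers are given, and those of primitive streak and mesoderm only for WT_20d against the knockout lines. The comparison of 1 wild type line with both knockout lines, the fit over days and the interaction were run on simulated data with 200 genes changed. The other comparisons were not. The simulated libraries held no difference between lines, so these runs cannot show how the pooled tests fare when days share a line. As alternatives, other tests, another threshold, other scalings and filters, no replicate block, and fits without each line or day were run. Promoter windows came from RefSeq (GRCm38.p6).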

Additional observations from a re-analysis of the deposited data

Results flagged for a closer look

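Within a wild type line, 1 library lay far from the other 4 for Clock in 2 cases, by Dixon's test at 95%. The test was run on log2(CPM + 1), and the gaps and ranges are on that scale. Clock in WT_1-4 was at 105 CPM (104.8) on day 14, against 60.7 for the next library, a gap of 0.896 of the whole range. Clock in WT_20d was at 45.9 CPM on day 14, against 30.2 for the next, a gap of 0.755 of the range. In all 30 groups were examined, each member in the 5 libraries of WT_1-4, in the 5 of WT_20d and in the 10 of both knockout lines together, and chance marks about 1 in 20 of them. The knockout lines were not examined separately, so a library that stood apart within either of them was not looked for. Clock in N4_5-8, for instance, was at 30.3 CPM on day 14 and at 55.46 to 63.0 CPM on the other days. The days of a line are not replicates, so a late change in level would be marked in the same way.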

How the results depend on the processing

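Of the member values recomputed under the alternatives, 816 kept their direction and their side of the threshold, 44 lost and 43 gained a call, and 27 changed sign. For 4 members the 5 genes most like them were also found after subtraction of the line means, and all 4 of these lists moved. In the pooled comparison of WT_1-4 with the knockout lines, 1903 genes passed, and 1228 with the quasi-likelihood test, 1221 at an FDR under 0.001, a threshold added after the data had been seen, and 1114 to 1994 when a day or a knockout line was left out. The comparison of 2 wild type with 2 knockout lines on summed counts is a different set of samples. It called 0 genes, 178 without WT_1-4 and 0 without any of the other lines (199 to 2539 at an unadjusted p under 0.05), the lone line of a genotype being assumed to vary like the others. Between the knockout lines 740 genes passed, and 1208 at an FDR under 0.05, 422 at an FDR under 0.001, 256 with the quasi-likelihood test, 2135 with the day as a replicate block in it, 1173 with DESeq2 and 272 to 950 without 1 day. The test over the days gave 3203 genes, and 5277 at an FDR under 0.05, 5093 with DESeq2, 644 with no replicate block and 624 to 3978 without 1 line. Without the block only 1 member passed there. Day 14 against day 0 gave 5141 genes, and 1756 with no replicate block and 2567 to 5839 without 1 line. Day 3 gave 29, and 120 at an FDR under 0.05, 0 with no replicate block (524 at an unadjusted p under 0.05), 237 with DESeq2, 92 without the filter and 0 to 89 without 1 line. The interaction gave 2, and 5 at an FDR under 0.05, 0 with no replicate block (256 at an unadjusted p under 0.05), 185 with DESeq2, 11 without the filter and 0 to 605 without 1 line. Where a line was left out of the interaction, the lone line of its genotype was assumed to vary like the others.

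Values that changed sign belonged to no call. Against WT_1-4, when a day or a knockout line was left out, Cry2 ranged from -0.089 to 0.05 and Clock from -0.37 to 0.70. On summed counts, without 1 line, Per3 ranged from -0.5514 to 0.7987, Arntl from -0.8926 to 0.2385, Nr1d1 from -0.991 to 0.4658, Nr1d2 from -0.2478 to 0.9136 and Dbp from -0.3157 to 1.511. Against WT_20d, Arntl ranged from -0.14 to 0.76 and Nr1d1 from -0.16 to 0.72 in the same way. Per1 between the wild type lines was -0.018 with DESeq2, -0.092 with upper quartile scaling, -0.044 with the expression filter and -0.32 to 0.57 without 1 day. Dbp between the knockout lines was -0.51 to 0.36 without 1 day. On day 3, Nr1d1 was 0.0044 with DESeq2, 0.015 with upper quartile scaling, 0.0091 without the filter and -0.12 to 0.15 without 1 line, and Nr1d2 was -0.29 to 0.0595 without 1 line. DESeq2 moved the median over all genes against WT_20d from -0.02 to -0.14. The causes were not tested. A member count as low as 67 limits single values of Per2 most.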
